A study of Mus musculus with 26 samples.

Results

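A group of 47 genes of the Wnt signalling pathway was followed through every deposited table of a study of mouse embryonic stem cells with and without the gene Hmces. The genes were taken by symbol from the 25239 genes listed, and comprised 9 Wnt ligands, 14 receptors (the frizzled genes Fzd1 to Fzd10, Ror1, Ror2, Lrp5 and Lrp6), 13 core components and 11 feedback targets and modulators. All 47 were listed in the count table and in the TPM table of untreated cells. The activin A table listed 46 of them, without Lgr5, and the tables of the other 3 treatments listed 45, without Wnt7a and Lgr5.

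The cells were wild type (WT) or knocked out for Hmces (HMCES-KO), whose protein binds abasic sites in DNA. All were labelled as mouse embryonic stem cells of C57BL/6 origin, kept on gelatin-coated plates in medium with serum. Untreated cells were sequenced in a count table, with 2 libraries each of WT and of the knockout lines named KO7 and KO8 in its columns, and in a table of TPM values (a read level per gene length and library size), with 2 WT and 2 HMCES-KO libraries, whose headers hold the letters CCE for WT and K8 for HMCES-KO and do not otherwise tie the latter to KO7 or KO8. Treated cells were harvested after 2 h with 50 ng/ml activin A (a ligand of the activin and Nodal receptors), 10 µM SB431542 (an inhibitor of those receptors), 10 ng/ml BMP4 (a ligand of the BMP receptors) or 50 nM LDN193189 (an inhibitor of BMP receptors). Each treatment had a TPM table of its own with 2 WT libraries and 1 library each of the lines labelled KO1 and KO2. The sources used here do not say which of KO1 and KO2 corresponds to KO7 or KO8, or whether a line is a single clone. The labels name no added Wnt protein or Wnt inhibitor.

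Wnt proteins are lipid-modified signals that the carrier Wls brings to the cell surface. They bind a frizzled receptor together with the co-receptor Lrp5 or Lrp6, which recruits dishevelled proteins (Dvl) and stops the complex of Apc, Axin and Gsk3 kinases from marking beta-catenin (Ctnnb1) for destruction, so that beta-catenin enters the nucleus and joins DNA-binding factors of the Tcf/Lef family. In embryonic stem cells beta-catenin is best known for relieving repression of pluripotency genes by Tcf7l1. Ror1 and Ror2 are receptors of the branch that does not use beta-catenin. Many direct targets, such as Axin2, Sp5, Notum, Nkd1, Znrf3 and Rnf43, damp the pathway.

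The Tcf/Lef factors recognise a core of the letters CTTTGAT or CTTTGAA, so the promoters of all members that have an entry were read for these letters on both strands, over 300 bases per start (250 before it and 50 after it), from RefSeq on build GRCm38.p6. The table of promoters held 42 starts for 32 of the 47 members. Either core was present at 5 of these 42 starts (11.9%), compared with 8.65% of all 32851 promoters. The 5 were starts of Sp5, Wnt11 and Wnt5b, with CTTTGAT, and of Dkk1 and Gsk3a, with CTTTGAA. The 250 bases before the start are shown for Sp5 and Dkk1, the feedback genes with a core, for Axin2, a classical target without either core in this window, and for Wnt6, the ligand that was lower in the most tables. Capitals mark a core. The core of Sp5 began 104 bases before the start, and that of Dkk1 117 bases before it. A match is a description of letters and not a site shown to be bound.
Sp5 (chr2:70474673-70474922, plus strand): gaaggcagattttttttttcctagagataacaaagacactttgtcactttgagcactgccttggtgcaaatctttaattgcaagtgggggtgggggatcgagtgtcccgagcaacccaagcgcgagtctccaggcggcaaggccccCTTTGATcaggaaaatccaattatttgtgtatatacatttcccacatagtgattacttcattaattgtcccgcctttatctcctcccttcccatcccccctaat
Dkk1 (chr19:30549497-30549746, minus strand): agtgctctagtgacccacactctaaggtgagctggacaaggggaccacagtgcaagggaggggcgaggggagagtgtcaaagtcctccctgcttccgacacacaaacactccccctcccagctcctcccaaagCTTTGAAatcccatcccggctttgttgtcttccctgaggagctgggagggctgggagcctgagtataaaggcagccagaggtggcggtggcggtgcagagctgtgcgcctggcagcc
Axin2 (chr11:108920099-108920348, plus strand): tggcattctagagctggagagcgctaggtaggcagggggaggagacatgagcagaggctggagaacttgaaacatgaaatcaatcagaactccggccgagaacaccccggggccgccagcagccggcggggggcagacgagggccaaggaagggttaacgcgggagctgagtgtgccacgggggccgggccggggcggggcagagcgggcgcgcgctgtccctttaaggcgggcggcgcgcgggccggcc
Wnt6 (chr1:74771642-74771891, plus strand): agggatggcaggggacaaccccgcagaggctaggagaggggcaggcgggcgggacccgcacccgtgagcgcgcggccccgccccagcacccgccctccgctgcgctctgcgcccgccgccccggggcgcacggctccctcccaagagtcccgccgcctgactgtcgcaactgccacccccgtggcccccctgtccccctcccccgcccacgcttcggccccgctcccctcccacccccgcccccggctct

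Depth, in units of 1000000 counted read pairs, ran from 9.57 to 13.5 per library in the count table. Whole reads recovered from TPM came, in the same unit, to 8.52 to 10.04 in the untreated TPM table and 4.07 to 5.46 in the treated tables. Hmces itself had a mean of 648 TPM in WT, 242 in KO7 and 163 in KO8, and 753 against 163 in the untreated TPM table. Within each treated table its HMCES-KO libraries lay below WT. The log2 fold changes in limma were -1.47, -1.23, -1.10 and -1.29 under activin A, SB431542, BMP4 and LDN193189 (adjusted p = 0.038, 0.076, 0.14 and 0.13). Between the treated lines, Hmces was lower in KO2 than in KO1 (-1.06 ± 0.07, adjusted p = 0.00011). The 8 pluripotency markers checked (among them Pou5f1, Sox2, Nanog and Zfp42) summed to between 13652 and 13902 TPM in every library of the count table. Markers of other cells differed between genotypes there: 12 endoderm markers summed to 108 to 121 TPM in WT and 24.1 to 44.4 in the knockout lines (Afp at 0 in 5 of 6 libraries), while 7 neuroectoderm markers to 175 to 191 in WT and 266 to 381 in the knockout lines (Neurog2 at 0 in 5 of 6). A list of 8 trophectoderm markers summed to 165 to 168 TPM in KO8, 68.7 to 73.1 in KO7 and 83.2 to 83.7 in WT (Elf5 at 0 in 4 of 6), and 8 fibroblast markers to 62.7 to 62.8 in WT and 17.5 to 26.6 in the knockout lines, with Lum and Postn at 0 in all 6. Against the direction of that sum, Col3a1 and Dcn were at 0 in both WT libraries and above 0 in both KO8 libraries. The 7 primitive streak and mesoderm markers summed to 16.99 to 17.3 TPM in WT, 8.45 to 10.3 in KO7 and 15.3 to 16.98 in KO8. In the untreated TPM table that list was higher in HMCES-KO (13.5 to 14.1 TPM, against 9.59 to 10.5 in WT). There the endoderm sums were 42.5 to 44.0 in WT and 36.0 to 36.9 in HMCES-KO. Neuroectoderm sums were higher there in HMCES-KO, and fibroblast and trophectoderm sums lower. In bulk RNA, fewer cells of a type and less RNA per cell cannot be told apart, and the part of these differences in the results on Wnt genes was not tested. Genes of chromosome 6 from 60 Mb on were lower as a group in the count table (median log2 fold change -0.39 in KO7 and -0.25 in KO8 over 422 genes), and genes of chromosome 8 from 30 Mb on were higher in KO7 (0.33 over 614 genes, against -0.03 in KO8). The members there are Tcf7l1, Wnt7a, Wnt5b and Lrp6 on chromosome 6 and Nkd1 on chromosome 8. Hmces itself lies in that part of chromosome 6 (chr6:87913976-87936613). Before 60 Mb, genes of chromosome 6 had medians of -0.05 in KO7 and -0.21 in KO8 over 216 genes.

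In the WT libraries of the untreated TPM table, 4 to 5 of 9 ligands, 12 to 13 of 14 receptors, all 13 core components and 8 of 11 feedback genes reached 1 TPM. The highest ligand, Wnt6, averaged 5.61 TPM, followed by Wnt7b at 2.59, Wnt11 at 2.35 and Wnt5b at 1.78, and the means of the other 5 ligands lay between 0.319 (Wnt4) and 1.24 TPM (Wnt9a). The 2 libraries of Wnt6, at 5.69 and 5.52 TPM, did not overlap those of Wnt7b (2.60 and 2.59), while the ranges of Wnt9a, Wnt8a and Wnt5a overlapped one another. Among receptors Fzd5 stood first with 220.2 and 214 TPM, ahead of Fzd7 with 67.8 and 67.5 and the co-receptor Lrp6 with 64.5 and 60.4. Fzd2, which differed between genotypes in most tables, was one of the lower frizzled genes in WT, with 5.49 and 6.55 TPM. Beta-catenin (Ctnnb1) was the highest of all 47, at 997 and 1005 TPM, ahead of the dishevelled gene Dvl2 (108 and 109) and Axin1 (96.7 and 104) among core components. The highest feedback genes were the secreted antagonist Sfrp1 (110.3 and 113), the R-spondin receptor Lgr4 (101 and 105) and Notum, an enzyme that inactivates Wnt proteins (67.1 and 65.4). Lgr5, an R-spondin receptor that marks intestinal stem cells, was at 0 and 0.0655 TPM.

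**Figure D1:**
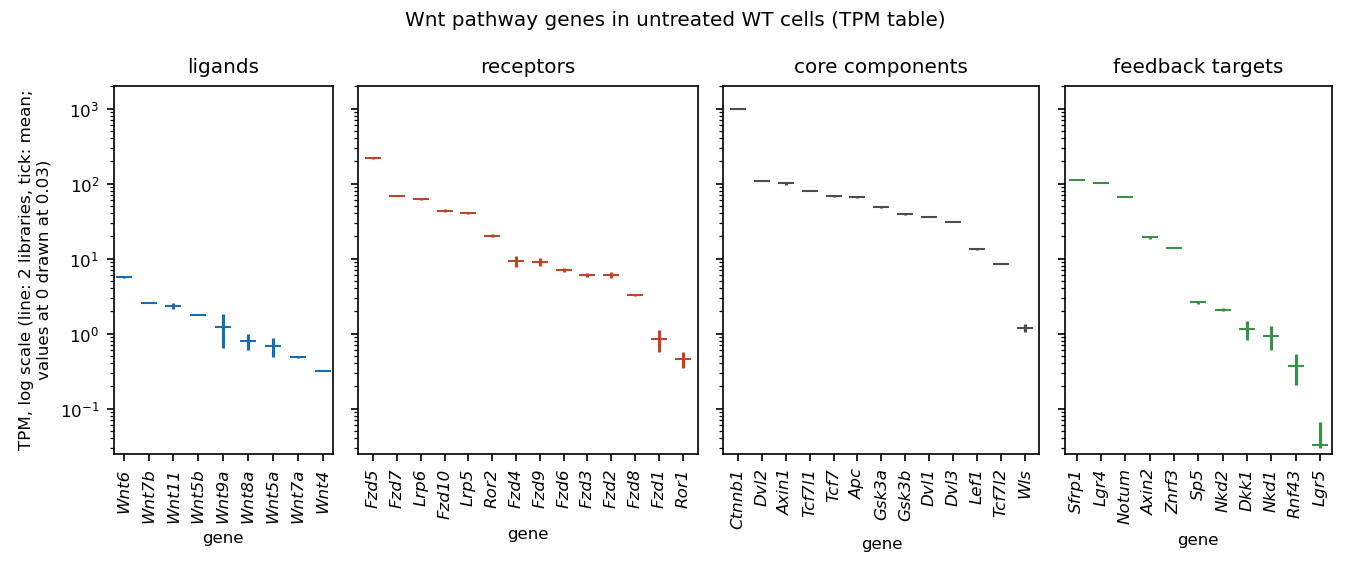
Level of each of the 47 genes in untreated WT cells of the TPM table, on a log axis in TPM, by role. Lines span the 2 libraries and ticks mark their mean. The highest means are 217 TPM for receptors (Fzd5), 1001 for core components (Ctnnb1) and 112 for feedback genes (Sfrp1), while that of the ligands is 5.61 (Wnt6).

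Of the 47 members, 43 had enough counts in the count table to be tested, all but Wnt4, Wnt7a, Wnt8a and Lgr5. In the mean of both knockout lines against WT, 12 of the 43 were higher and 13 lower at an adjusted p under 0.05, or 25 in all, where 40.6% of the 13475 genes tested were called (19.9% higher and 20.8% lower). The members' median log2 fold change was 0.08, and that of all genes tested was -0.01. By role, 1 ligand was higher and 3 were lower of 6 tested, 3 receptors were higher and 6 lower of 14, 4 core components higher and 2 lower of 13, and 4 feedback genes higher and 2 lower of 10. With all 4 knockout libraries taken as 1 group, so that the spread between lines counted as error, 9 members were called (5 higher, 4 lower). Scaled by library totals alone, the split of calls was 9 higher and 13 lower. That of all genes moved from 2677 higher and 2799 lower to 1993 and 3497.

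Taken line by line, KO7 differed from WT in 13 members upwards and 9 downwards (22 of 43, against 38.2% of all genes, 19.0% higher and 19.2% lower), and KO8 in 14 upwards and 15 downwards (29 of 43, against 38.9%, 19.3% higher and 19.7% lower). Without replicate 2 of KO7 its count was 12, and without replicate 2 of KO8 that line's count was 18. With library totals alone the splits were 9 higher and 11 lower for KO7 and 9 and 16 for KO8. Over all genes the split for KO7 moved from 2558 higher and 2591 lower to 1818 and 3241. The one for KO8 moved from 2594 and 2654 to 2057 and 3125. Of 39 members tested in the untreated TPM table, 5 were higher (against 5.80% of 13314 genes) and 5 lower (against 10.2%). Their median was -0.06, the same as over all genes to this precision. Without WT replicate 1 or WT replicate 2 the count was 3, and median-of-ratios scaling gave 6 higher and 3 lower. Over all genes that scaling moved the split from 772 higher and 1356 lower to 1073 and 931.

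**Figure D2:**
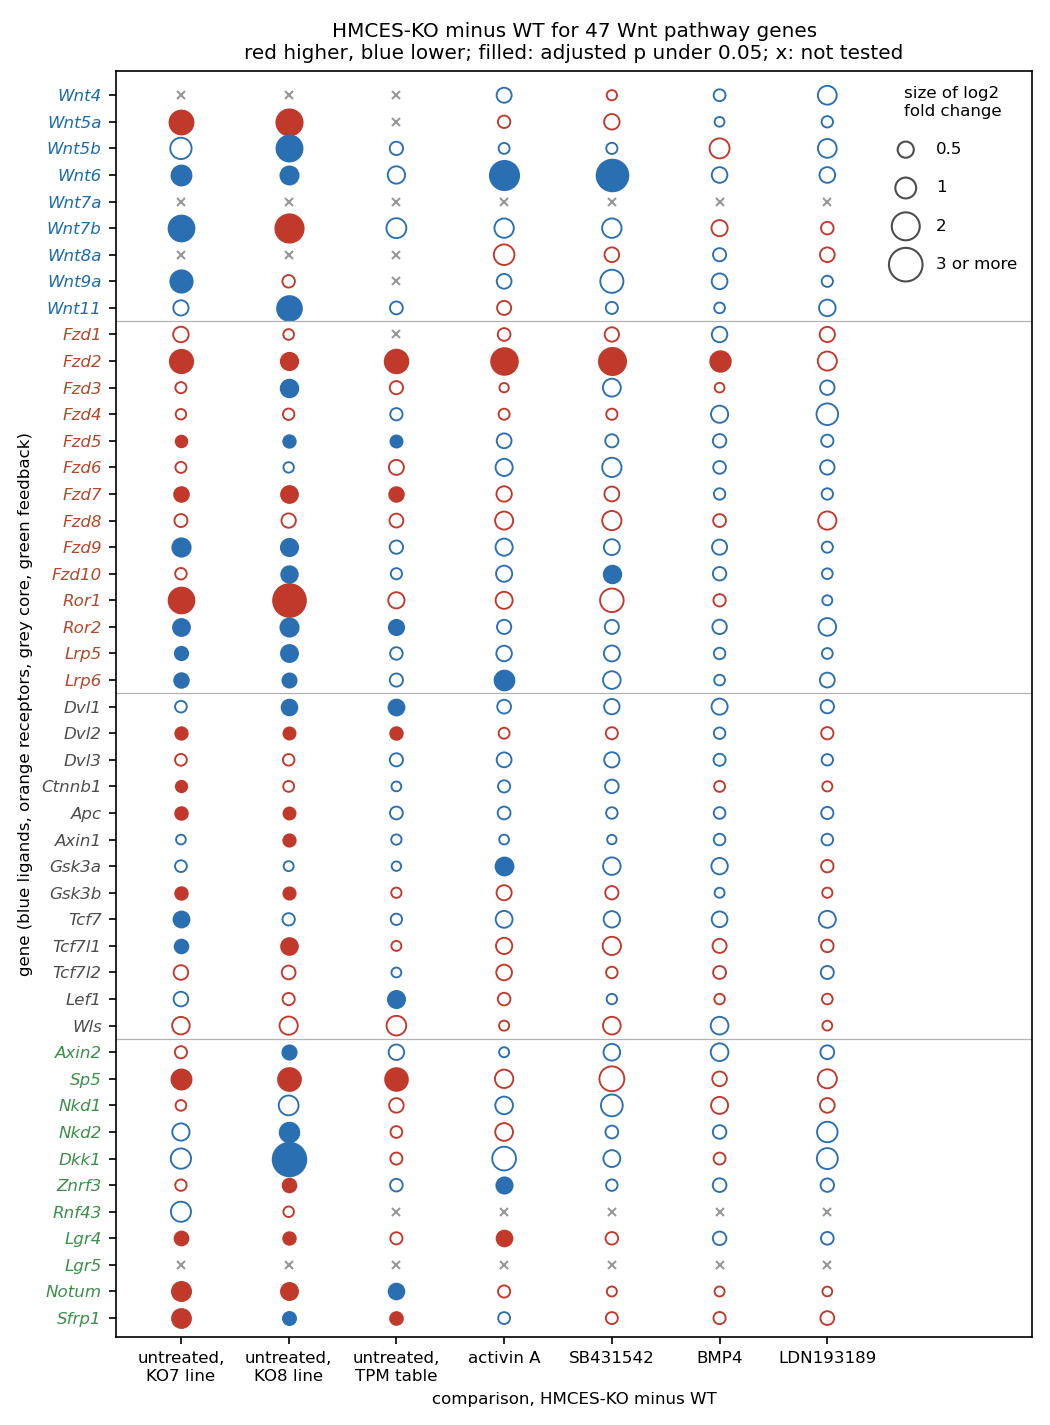
Log2 fold change of HMCES-KO minus WT for each of the 47 genes (rows, by role) in 7 comparisons (columns). Circle size gives the size of the change, red is higher and blue is lower in HMCES-KO, filled circles passed an adjusted p of 0.05, and crosses were not tested. The row of Fzd2 is red throughout, the rows of Wnt6 and Ror2 are blue throughout, and the rows of Wnt7b, Tcf7l1 and Sfrp1 have opposite colours in KO7 and KO8.

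Of the ligands, Wnt6 (chr1:74771892-74785319 on mm10) was lower in both lines. Its level was 13.6 and 12.3 TPM in WT, 6.70 and 6.75 in KO7, and 7.82 and 7.77 in KO8. Every knockout library lay below both WT libraries, and the log2 fold change was -0.90 ± 0.19 (adjusted p = 0.00082) in KO7 and -0.70 ± 0.19 (adjusted p = 0.0062) in KO8. Wnt6 was at 5.69 and 5.52 TPM in WT and 3.20 and 3.42 in HMCES-KO in the untreated TPM table, again without overlap, and the difference of -0.62 ± 0.16 did not pass the test (adjusted p = 0.056). Wnt5a, a ligand mostly linked to the branch without beta-catenin, was at 0.765 and 0.214 TPM in WT, 1.26 and 1.37 in KO7, and 1.60 and 1.71 in KO8. It was higher in both lines, by 1.41 ± 0.40 and 1.73 ± 0.39 (adjusted p = 0.0084 and 0.0016), on counts of 21 and 5 in WT, 39 and 31 in KO7, and 35 and 41 in KO8. Wnt5b was at 2.25 and 1.93 TPM in WT, 1.23 and 0.631 in KO7, and 0.544 and 0.695 in KO8, and the difference passed in KO8 (-1.70 ± 0.48, adjusted p = 0.0079) and not in KO7 (-1.06 ± 0.42, adjusted p = 0.051). Its counts were 26 and 19 in WT, 16 and 6 in KO7, and 5 and 7 in KO8. Genes within 5 Mb of Wnt5b on chromosome 6 had a median of -0.25 over 66 genes in KO8. Wnt11, a ligand known from heart and gastrulation, was at 4.33 and 3.56 TPM in WT, 3.14 and 2.54 in KO7, and 1.36 and 1.32 in KO8. It was lower in KO8, with a log2 fold change of -1.52 ± 0.31 (adjusted p = 0.0007), and its difference in KO7 was -0.42 ± 0.26 (adjusted p = 0.23).

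Wnt7b (chr15:85535437-85581821), a ligand of placenta, lung and nervous system development, moved in opposite directions in the knockout lines. It was at 4.53 and 5.57 TPM in WT, 1.71 and 1.26 in KO7, and 19.9 and 20.9 in KO8. KO7 lay below WT, with a log2 fold change of -1.68 ± 0.22 (adjusted p = 6.6e-06) and KO8 above it by 2.05 ± 0.15 (adjusted p = 2.1e-09), so the mean of both lines, 0.19 ± 0.17, averaged opposite differences. Wnt7b was at 2.60 and 2.59 TPM in WT and 0.587 and 1.37 in HMCES-KO in the untreated TPM table, on the lower side as in KO7, and did not pass (-0.89 ± 0.27, adjusted p = 0.08). Wnt9a was at 2.91 and 1.38 TPM in WT, 0.799 and 1.09 in KO7, and 2.70 and 2.22 in KO8, with a lower value in KO7 (-1.18 ± 0.40, adjusted p = 0.025) and none that passed in KO8 (0.20 ± 0.35, adjusted p = 0.68). Wnt4, Wnt7a and Wnt8a were not tested, with 0 to 18 counts per library.

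Among the receptors, Fzd2 (chr11:102604431-102608058) was higher in both lines. It was at 7.35 and 7.52 TPM in WT, 17.5 and 18.4 in KO7, and 11.4 and 10.9 in KO8, so every knockout library exceeded WT, KO7 most. The log2 fold change was 1.32 ± 0.13 (adjusted p = 2.2e-07) in KO7 and 0.62 ± 0.14 (adjusted p = 0.002) in KO8. The untreated TPM table gave 5.49 and 6.55 TPM in WT and 15.0 and 18.9 in HMCES-KO and a difference of 1.35 ± 0.16 (adjusted p = 0.0073). Fzd7, an abundant frizzled receptor of stem cells, was at 69.1 and 58.4 TPM in WT, 79.6 and 80.6 in KO7, and 93.7 and 91.8 in KO8, higher by 0.37 ± 0.07 and 0.57 ± 0.07 (adjusted p = 0.0002 and 1.5e-06). The untreated TPM table had it at 67.8 and 67.5 TPM in WT and 84.7 and 90.1 in HMCES-KO, higher by 0.36 ± 0.06 (adjusted p = 0.013). Among receptors tested in both data sets, Fzd2 and Fzd7 were those called higher in both lines and in the untreated TPM table. Fzd9 was at 23.4 and 23.9 TPM in WT, 13.6 and 14.3 in KO7, and 15.6 and 14.7 in KO8, lower, with a log2 fold change of -0.72 ± 0.14 and -0.61 ± 0.14 (adjusted p = 0.00036 and 0.0018). Its values of 8.01 and 10.1 TPM in WT and 7.50 and 7.18 in HMCES-KO in the untreated TPM table gave -0.26 ± 0.16 (adjusted p = 0.3).

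The receptors of the branch without beta-catenin went opposite ways. Ror2 was at 29.7 and 24.9 TPM in WT, 17.9 and 17.7 in KO7, and 16.2 and 16.6 in KO8, lower, with a log2 fold change of -0.58 ± 0.10 (adjusted p = 0.00016) in KO7 and -0.71 ± 0.11 (adjusted p = 2.7e-05) in KO8. It was lower in the untreated TPM table too, with 19.4 and 21.1 TPM in WT and 14.6 and 15.1 in HMCES-KO and a difference of -0.42 ± 0.10 (adjusted p = 0.042). Ror1 was at 0.130 and 0.575 TPM in WT, 0.896 and 1.23 in KO7, and 2.05 and 2.73 in KO8, higher by 1.66 ± 0.46 (adjusted p = 0.0072) and 2.85 ± 0.41 (adjusted p = 1.7e-05). These levels rest on counts of 4 and 15 in WT, 31 and 31 in KO7, and 50 and 73 in KO8. Ror1 was at 0.343 and 0.569 TPM in WT and 1.02 and 1.10 in HMCES-KO in the untreated TPM table and did not pass (0.50 ± 0.26, adjusted p = 0.24).

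The co-receptors that pair with frizzled proteins were lower in both lines. Lrp5 was at 56.7 and 46.9 TPM in WT, 41.7 and 42.4 in KO7, and 34.2 and 33.5 in KO8, lower, with a log2 fold change of -0.26 ± 0.08 and -0.58 ± 0.08 (adjusted p = 0.011 and 9.2e-06). Lrp6, on chromosome 6 (chr6:134446478-134566913), was at 44.3 and 40.9 TPM in WT, 31.4 and 32.9 in KO7, and 33.8 and 32.8 in KO8, lower, with a log2 fold change of -0.36 ± 0.06 and -0.33 ± 0.06 (adjusted p = 0.00012 and 0.0004). The genes within 5 Mb of Lrp6 had a median log2 fold change of -0.51 over 32 genes in KO7 and -0.51 over 32 genes in KO8; Lrp6 was less far below 0 than these medians. Neither passed in the untreated TPM table, where Lrp5 differed by -0.20 ± 0.09 (adjusted p = 0.16) and Lrp6 by -0.25 ± 0.07 (adjusted p = 0.061). In that table the median over the 418 tested genes of chromosome 6 from 60 Mb on was 0.03.

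Fzd5, the most abundant receptor, was at 189 and 178 TPM in WT, 190.3 and 201 in KO7, and 156 and 157 in KO8. It was slightly higher in KO7 (0.14 ± 0.05, adjusted p = 0.043) and lower in KO8 (-0.20 ± 0.05, adjusted p = 0.0056), and lower in the untreated TPM table, with 220.2 and 214 TPM in WT and 190.5 and 194 in HMCES-KO (-0.17 ± 0.04, adjusted p = 0.04). Fzd3 and Fzd10 were lower in KO8 and passed no test in KO7. Fzd3, a receptor of axon guidance and planar polarity, was at 4.58 and 4.20 TPM in WT, 4.45 and 4.73 in KO7, and 2.70 and 2.79 in KO8 (-0.65 ± 0.13, adjusted p = 0.00061 in KO8 and 0.10 ± 0.12, adjusted p = 0.52 in KO7). Fzd10 was at 42.6 and 41.9 TPM in WT, 45.6 and 44.0 in KO7, and 30.2 and 26.9 in KO8 (-0.54 ± 0.09, adjusted p = 0.00015 in KO8 and 0.13 ± 0.09, adjusted p = 0.25 in KO7). The other receptors, Fzd1, Fzd4, Fzd6 and Fzd8, passed in no comparison of untreated cells.

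Of the 13 core components, 4 were higher and 2 lower in KO7, and 5 were higher and 1 lower in KO8. Beta-catenin was at 1056 and 1005 TPM in WT, 1086 and 1090.1 in KO7, and 1081 and 1066 in KO8, higher by 0.12 ± 0.05 (adjusted p = 0.049) in KO7 and 0.09 ± 0.05 (adjusted p = 0.14) in KO8, where the test was not passed. Among its regulators, Apc was at 38.6 and 37.1 TPM in WT, 42.8 and 42.1 in KO7, and 42.0 and 41.1 in KO8 and Gsk3b at 28.3 and 29.1 TPM in WT, 32.1 and 32.0 in KO7, and 32.5 and 31.2 in KO8. Both were higher in both lines, Apc by 0.21 ± 0.06 and 0.17 ± 0.06 (adjusted p = 0.0054 and 0.022) and Gsk3b by 0.21 ± 0.07 and 0.18 ± 0.07 (adjusted p = 0.019 and 0.038). The Apc call in KO8 was lost under 5 alternatives (adjusted p up to 0.139) and that in KO7 without replicate 1 of KO7 (0.0835). The Gsk3b calls were lost under 7 alternatives in KO8 (up to 0.211) and 5 in KO7 (up to 0.128), DESeq2 and scaling by library totals among them in both lines. The beta-catenin call in KO7 was lost under 8 alternatives (up to 0.387), also with DESeq2 and library totals among them. In the untreated TPM table Apc took the other sign without passing (-0.22 ± 0.06, adjusted p = 0.058). Axin1, the scaffold of the destruction complex, was at 105 and 114 TPM in WT, 103 and 106 in KO7, and 125 and 119 in KO8, higher in KO8 (0.19 ± 0.06, adjusted p = 0.025, against -0.02 ± 0.06, adjusted p = 0.81 in KO7). The Axin1 call in KO8 was lost under 7 alternatives (up to 0.186). Gsk3a and Dvl3 passed in no comparison of untreated cells.

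The dishevelled genes differed in direction. Dvl2, the most abundant, was at 147 and 155 TPM in WT, 169 and 167 in KO7, and 172 and 162 in KO8, higher by 0.19 ± 0.06 and 0.17 ± 0.06 (adjusted p = 0.015 and 0.029). The untreated TPM table gave 108 and 109 TPM in WT and 129 and 121 in HMCES-KO and 0.20 ± 0.05 (adjusted p = 0.046). Dvl1 was at 54.0 and 56.1 TPM in WT, 45.3 and 51.9 in KO7, and 39.3 and 38.7 in KO8, lower in KO8 (-0.46 ± 0.09, adjusted p = 0.00025) and without a call in KO7 (-0.14 ± 0.08, adjusted p = 0.19). It was lower in the untreated TPM table, at 35.5 and 36.2 TPM in WT and 26.3 and 24.6 in HMCES-KO (-0.48 ± 0.08, adjusted p = 0.015), where genes within 5 Mb of it had a median of -0.18 over 73 genes.

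Of the nuclear factors, Tcf7 was at 97.8 and 82.5 TPM in WT, 61.0 and 64.5 in KO7, and 77.2 and 77.8 in KO8, lower in KO7, with a log2 fold change of -0.48 ± 0.08 (adjusted p = 6.2e-05) and in KO8 by -0.19 ± 0.08 (adjusted p = 0.061), which did not pass. Tcf7l1, the repressor that counters pluripotency genes in stem cells, was at 106 and 106 TPM in WT, 87.3 and 80.6 in KO7, and 154 and 152 in KO8. It was lower in KO7 (-0.29 ± 0.07, adjusted p = 0.0017) and higher in KO8 (0.56 ± 0.06, adjusted p = 1e-06). Tcf7l1 lies on chromosome 6 (chr6:72626371-72789045), where genes within 5 Mb had a median of -0.37 over 33 genes in KO7 and -0.21 over 33 genes in KO8, a median of the opposite sign to Tcf7l1 in KO8. Tcf7l1 was at 81.3 and 79.2 TPM in WT and 83.3 and 81.5 in HMCES-KO in the untreated TPM table (0.04 ± 0.05, adjusted p = 0.65). Lef1 was lower in the untreated TPM table, at 13.8 and 12.9 TPM in WT and 8.98 and 8.04 in HMCES-KO (-0.60 ± 0.13, adjusted p = 0.03). In the count table Lef1 gave -0.36 ± 0.22 (adjusted p = 0.2) in KO7 and 0.18 ± 0.21 (adjusted p = 0.54) in KO8. Tcf7l2 and the ligand carrier Wls passed in no comparison of untreated cells, Wls with 0.86 ± 0.23 (adjusted p = 0.054) in the untreated TPM table.

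The feedback targets did not move as a group. Sp5 is a transcription factor gene directly induced by beta-catenin. Its promoter holds the core CTTTGAT, as do those of Wnt11 and Wnt5b, which were lower in KO8. Sp5 was at 4.38 and 3.09 TPM in WT, 6.61 and 7.19 in KO7, and 9.64 and 8.04 in KO8. It was higher by 0.91 ± 0.25 (adjusted p = 0.0075) in KO7 and 1.25 ± 0.25 (adjusted p = 0.00051) in KO8. The untreated TPM table gave 2.73 and 2.50 TPM in WT and 7.96 and 7.06 in HMCES-KO and 1.23 ± 0.17 (adjusted p = 0.0096), and in all 3 comparisons no knockout library overlapped WT. Axin2, the usual reporter of beta-catenin activity, was at 13.4 and 13.3 TPM in WT, 14.1 and 15.1 in KO7, and 10.3 and 10.4 in KO8. It was lower in KO8 (-0.33 ± 0.12, adjusted p = 0.036) and on the higher side in KO7 without passing (0.17 ± 0.11, adjusted p = 0.25). Axin2 was at 18.2 and 20.2 TPM in WT and 15.3 and 12.6 in HMCES-KO in the untreated TPM table (-0.44 ± 0.13, adjusted p = 0.071). The Axin2 call in KO8 was lost under 8 alternatives (adjusted p up to 0.172): in DESeq2, with no filter on low counts, and without any 1 of the 6 libraries.

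Dkk1, which encodes a secreted blocker of Lrp5 and Lrp6, was at 1.95 and 2.66 TPM in WT, 1.37 and 0.874 in KO7, and 0.129 and 0.118 in KO8. Its counts were 19 and 22 in WT, 15 and 7 in KO7, and 1 and 1 in KO8, so KO8 was nearly without it. The log2 fold change was -4.03 ± 0.70 (adjusted p = 0.00015) in KO8, a fitted value that depends on 1 count per library, and -0.93 ± 0.43 (adjusted p = 0.091) in KO7. Dkk1 was at 1.48 and 0.828 TPM in WT and 1.16 and 1.66 in HMCES-KO in the untreated TPM table (0.17 ± 0.28, adjusted p = 0.71). Notum was at 54.3 and 78.8 TPM in WT, 115 and 109 in KO7, and 94.0 and 101 in KO8 and was higher in both lines, by 0.80 ± 0.12 (adjusted p = 1.8e-05) and 0.59 ± 0.12 (adjusted p = 0.00061). The untreated TPM table gave the opposite, 67.1 and 65.4 TPM in WT and 47.3 and 48.4 in HMCES-KO, a difference of -0.46 ± 0.06 (adjusted p = 0.0079). Notum was the member called in opposite directions in the mean of both lines and in the untreated TPM table.

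Sfrp1 (chr8:23411502-23449632) was at 133 and 120.3 TPM in WT, 209.8 and 212 in KO7, and 108 and 101 in KO8. It was higher in KO7 by 0.78 ± 0.06 (adjusted p = 2.7e-09) and lower in KO8, with a log2 fold change of -0.24 ± 0.06 (adjusted p = 0.0027). The untreated TPM table gave 110.3 and 113 TPM in WT and 132 and 128 in HMCES-KO, higher by 0.22 ± 0.05 (adjusted p = 0.028), where genes within 5 Mb had a median of 0.26 over 56 genes. Lgr4 was at 88.6 and 85.2 TPM in WT, 101 and 107 in KO7, and 95.6 and 100.2 in KO8, higher by 0.30 ± 0.06 and 0.20 ± 0.06 (adjusted p = 0.00038 and 0.0095). Nkd2, an inhibitor of dishevelled, was at 2.12 and 3.30 TPM in WT, 1.67 and 1.74 in KO7, and 1.80 and 1.12 in KO8, lower in KO8 (-0.86 ± 0.33, adjusted p = 0.048) on counts of 25 and 17 in KO8. Znrf3, a ligase that removes frizzled receptors, was at 12.3 and 13.7 TPM in WT, 13.7 and 13.6 in KO7, and 15.0 and 16.04 in KO8, higher in KO8 (0.29 ± 0.10, adjusted p = 0.021). Nkd1 and Rnf43 passed in no comparison of untreated cells.

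Under every alternative tried, 9 of the 25 calls in the mean of both lines remained: Fzd2, Fzd7, Sp5, Lgr4 and Notum on the higher side and Wnt6, Fzd9, Ror2 and Lrp6 on the lower side. In KO7, 11 of 22 calls remained: Wnt6, Wnt7b, Fzd2, Fzd7, Fzd9, Ror2, Lrp6, Tcf7, Sfrp1, Lgr4 and Notum. In KO8, 16 of 29 remained: Wnt5a, Wnt7b, Wnt11, Fzd2, Fzd3, Fzd7, Fzd9, Fzd10, Ror1, Ror2, Lrp5, Lrp6, Dvl1, Tcf7l1, Sp5 and Dkk1. Those of Wnt6 and Notum in KO8 were lost in DESeq2 alone (adjusted p = 0.0584 and 0.0514). Leaving out 1 library ended 11 of the calls in KO7 and 11 of those in KO8. Of the 10 calls in the untreated TPM table, Sp5 was the one kept under every alternative. The call of Fzd2 there was lost under limma without trend alone, at an adjusted p of 0.05.

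**Figure D3:**
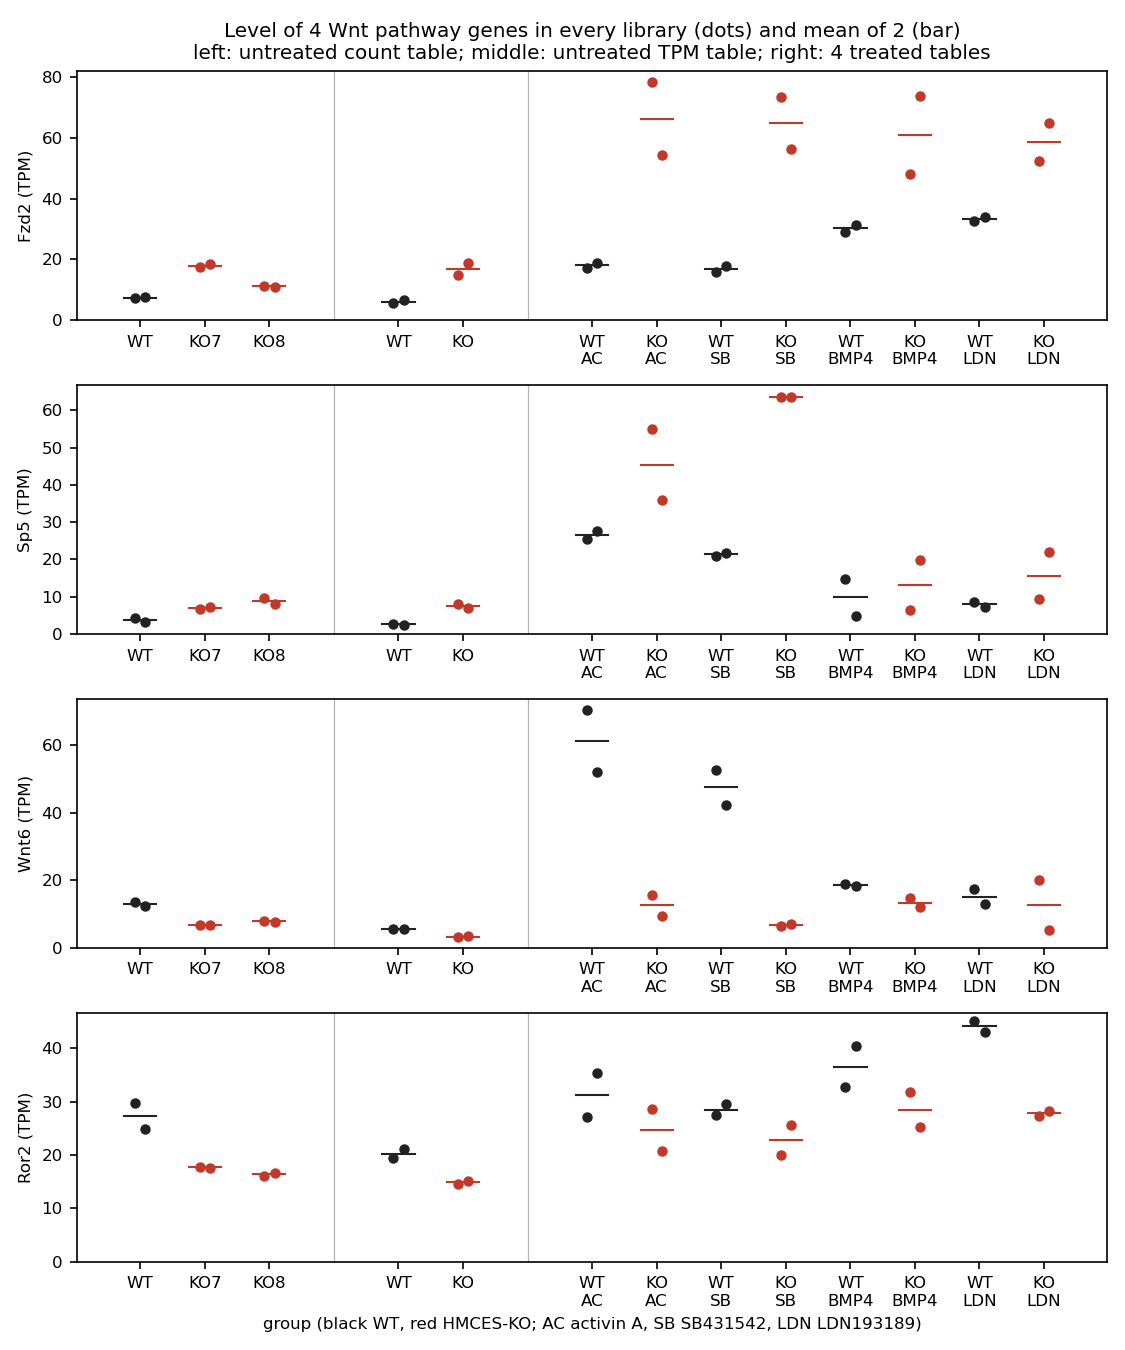
Level of Fzd2, Sp5, Wnt6 and Ror2 in TPM (vertical axes, from 0) in every library (dots), with bars at the mean of 2 libraries, for WT (black) and HMCES-KO (red). Panels from left to right hold the count table, the untreated TPM table and the 4 treated tables. Fzd2 lies above WT in the knockout libraries of each table, and Wnt6 lies at 42.3 to 70.3 TPM in WT and 6.40 to 15.7 TPM in HMCES-KO under activin A and SB431542.

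A wider list of 82 other Wnt pathway genes was read beside the members, of which 62 were tested in the count table. In the mean of both lines 15 were higher (against 19.9% of all genes) and 13 lower (against 20.8%), with a median of 0.05. Those with the largest changes were Sp8, a relative of Sp5, from a mean of 0.198 TPM in WT to 0.979 (2.31 ± 0.49, adjusted p = 0.0009), the ligand Wnt3 from 0.291 to 1.34 (2.25 ± 0.53, adjusted p = 0.0021), and the ligand Wnt10a from 1.72 to 0.354 (-2.18 ± 0.52, adjusted p = 0.0023). They rest on few counts. Sp8 had 3 and 4 in WT, 21 and 20 in KO7, and 12 and 16 in KO8. Wnt3 had 2 and 5, 21 and 8, and 18 and 19 in the same order, and Wnt10a 14 and 13, 4 and 1, and 4 and 2. The fourth was Klf2, a pluripotency gene known to be held down by Tcf7l1, at a mean of 540.0 TPM in WT and 1194 in the knockout lines (1.18 ± 0.05, adjusted p = 7.5e-13). Klf2 (chr8:72319062-72321654) lies in the region of chromosome 8 that was higher as a group in KO7, and differed by 1.25 ± 0.05 in KO7 and 1.11 ± 0.05 in KO8. It is 1 of 5 genes listed as held down by Tcf7l1, with Esrrb, Nanog, Nr5a2 and Tfcp2l1, of which 2 were higher and 0 lower in the mean of both lines, 1 higher (Klf2) and 4 lower in the untreated TPM table, and 1 higher (Klf2) and 2 lower in the mean of the treated tables. Sp8, Wnt3 and Wnt10a were also among the 4 largest in each line. In KO7 the list was completed by Ascl2, a target gene of stem cells and placenta (-1.48 ± 0.32, adjusted p = 0.001), and in KO8 by the ligand Wnt3a, the classical activator of beta-catenin (1.79 ± 0.36, adjusted p = 0.00059). Between the lines, Wnt3a was higher in KO8 than in KO7 (1.903 ± 0.36, adjusted p = 0.00045), as was Lgr6 (1.14 ± 0.33, adjusted p = 0.014), while Pygo1 (-1.20 ± 0.34, adjusted p = 0.011) and the antagonist Sfrp4 (-1.13 ± 0.17, adjusted p = 2.4e-05) were lower. Of 59 tested in the untreated TPM table, 3 were higher (against 5.80% of all genes) and 8 lower (against 10.2%). Sp8 was higher there (1.23 ± 0.25, adjusted p = 0.027), as was Cdx2 (1.39 ± 0.29, adjusted p = 0.028), and Cdx1 (-0.78 ± 0.15, adjusted p = 0.022) and the polarity gene Celsr1 (-0.92 ± 0.14, adjusted p = 0.013) were lower.

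In treated cells 44 members were tested, all but Wnt7a, Rnf43 and Lgr5, on the log2(TPM + 1) scale in a joint fit of 16 libraries. HMCES-KO differed from WT in 6 of them under activin A (2 higher, 4 lower, against 12.1% of 12608 genes, 5.10% higher and 7.03% lower), in 3 under SB431542 (1 higher, 2 lower, against 12.1%, 5.41% higher and 6.73% lower), in 1 under BMP4, which was higher (against 6.33%, 2.13% higher and 4.20% lower), and in 0 under LDN193189 (against 2.29%, 0.793% higher and 1.50% lower). For LDN193189 5 members had an unadjusted p under 0.05, and edgeR on recovered reads called 1. The members' medians were -0.07, -0.13, -0.13 and -0.12 in that order, beside -0.04, -0.03, -0.06 and -0.06 over all genes. Leaving out 1 library moved the activin A count to as few as 2 (WT replicate 2 or HMCES-KO replicate 2) or 3 (WT replicate 1), the SB431542 count to 5 (either HMCES-KO library under activin A) or 7 (either under LDN193189), the BMP4 count to 0 (either WT library) and the LDN193189 count to 1 (either HMCES-KO library under BMP4) or 2 (its HMCES-KO replicate 2). With the replicate number as a block, which for HMCES-KO is the line, the SB431542 count was 5. Median-of-ratios scaling gave 2 higher and 2 lower under activin A, where all genes moved from 643 higher and 886 lower to 767 and 749. The knockout libraries of a table came from different lines, so their spread includes the difference between lines. Gsk3b stood at 1.69 to 3.78 TPM in the treated tables and at 38.0 to 41.5 in the untreated TPM table, and no level was compared between treated and untreated tables.

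Fzd2 was again higher in the knockout libraries of each table, by 1.80 ± 0.22 (adjusted p = 0.00037) under activin A, 1.87 ± 0.22 (adjusted p = 0.00032) under SB431542 and 0.96 ± 0.22 (adjusted p = 0.021) under BMP4. Under LDN193189 it differed by 0.79 ± 0.22 (adjusted p = 0.079). Its levels were 17.3 and 18.9 TPM in WT and 78.3 and 54.5 in HMCES-KO under activin A and 15.9 and 17.9 TPM in WT and 73.4 and 56.3 in HMCES-KO under SB431542. Under BMP4 they were 29.0 and 31.4 TPM in WT and 48.1 and 73.8 in HMCES-KO, and under LDN193189 32.5 and 34.0 TPM in WT and 52.3 and 65.0 in HMCES-KO. In none of the 4 tables did the genotypes overlap. Wnt6 was lower under activin A (-2.21 ± 0.41, adjusted p = 0.0047) and SB431542 (-2.64 ± 0.41, adjusted p = 0.0018), with 70.3 and 51.9 TPM in WT and 15.7 and 9.55 in HMCES-KO and with 52.7 and 42.3 TPM in WT and 6.40 and 7.08 in HMCES-KO, respectively. Under BMP4 Wnt6 was at 19.0 and 18.2 TPM in WT and 14.8 and 11.9 in HMCES-KO (-0.45 ± 0.41, adjusted p = 0.56), and under LDN193189 at 17.5 and 12.8 TPM in WT and 20.2 and 5.41 in HMCES-KO (-0.46 ± 0.41, adjusted p = 0.62), where the genotypes overlapped. These calls of Fzd2 and Wnt6 under activin A and SB431542 were kept under every alternative tried.

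The remaining calls within a table were 5. Lrp6 was at 10.6 and 9.16 TPM in WT and 5.54 and 4.34 in HMCES-KO under activin A, lower, with a log2 fold change of -0.88 ± 0.23 (adjusted p = 0.027). Gsk3a, a kinase of the destruction complex, was at 67.9 and 84.8 TPM in WT and 59.2 and 37.4 in HMCES-KO there (-0.68 ± 0.20, adjusted p = 0.047), and Znrf3 at 28.0 and 23.3 TPM in WT and 17.8 and 17.5 in HMCES-KO (-0.51 ± 0.15, adjusted p = 0.048). Lgr4 was the member besides Fzd2 called higher, at 119 and 104 TPM in WT and 154 and 155 in HMCES-KO under activin A (0.47 ± 0.12, adjusted p = 0.022). Fzd10 was at 181 and 168 TPM in WT and 132 and 94.4 in HMCES-KO under SB431542, lower, with a log2 fold change of -0.64 ± 0.17 (adjusted p = 0.03). Each of these 5 lost its call when 1 library was left out.

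Over the mean of the 4 treated tables, 17 of the 44 members differed between genotypes, 3 higher and 14 lower, where 34.5% of all genes were called (13.8% higher and 20.7% lower). Median-of-ratios scaling gave 4 higher and 9 lower, and the all-gene split moved from 1737 higher and 2616 lower to 2180 and 2157. In this mean a knockout line enters once per table as if independent. The difference between KO1 and KO2 is part of the spread, pooled with that of WT, but both lines are counted anew in each table. The p-values therefore do not measure the spread that new lines would show. Sums of fibroblast, endoderm and neuroectoderm markers differed between genotypes here too, without overlap in any of the 4 tables. Trophectoderm sums overlapped under BMP4 (79.6 to 82.5 TPM in WT and 69.2 to 113 in HMCES-KO) and LDN193189. They were lower in HMCES-KO under activin A (173 to 181 in WT and 119 to 161) and SB431542. Primitive streak and mesoderm sums overlapped in all tables but that of BMP4 (10.9 to 12.3 in WT and 13.4 to 24.6). The 5 fibroblast markers listed summed to 29.9 to 45.1 TPM in WT and 4.36 to 22.8 in HMCES-KO over the 4 tables (Col3a1 at 0 in 3 of 16 libraries), the 11 endoderm markers to 41.6 to 95.2 and 22.0 to 64.5 (Apoa1 at 0 in 4 of 16), and the 6 neuroectoderm markers to 734 to 1038 and 828 to 1351, higher in HMCES-KO within each table (Zic1 at 0 in 6 of 16). Their part in the members' differences was not tested. The members' median was -0.18, beside -0.04 over all genes. Those higher were Fzd2 (1.35 ± 0.11, adjusted p = 2e-06), Sp5 (0.85 ± 0.25, adjusted p = 0.018) and Tcf7l1 (0.43 ± 0.12, adjusted p = 0.013). Fzd2 ran from 15.9 to 34.0 TPM (median 23.9) in the 8 WT libraries and from 48.1 to 78.3 (median 60.7) in the 8 HMCES-KO libraries, without overlap. Sp5 ran from 4.85 to 27.6 TPM (median 17.9) in the 8 WT libraries and from 6.33 to 63.7 (median 29.0) in the 8 HMCES-KO libraries, and Tcf7l1 from 89.3 to 126 TPM (median 98.9) in the 8 WT libraries and from 96.4 to 174 (median 144) in the 8 HMCES-KO libraries, both overlapping.

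Of the 14 lower members, Wnt6 had the largest change (-1.44 ± 0.21, adjusted p = 0.00017), and 6 were receptors. Ror2 ran from 27.2 to 45.2 TPM (median 34.0) in the 8 WT libraries and from 19.99 to 31.8 (median 26.5) in the 8 HMCES-KO libraries (-0.41 ± 0.10, adjusted p = 0.0056). Lrp6 ran from 7.38 to 10.6 TPM (median 9.30) in the 8 WT libraries and from 4.34 to 7.66 (median 6.15) in the 8 HMCES-KO libraries (-0.50 ± 0.12, adjusted p = 0.005), beside a median of -0.29 over 30 genes within 5 Mb of it. Fzd9 ran from 42.6 to 84.6 TPM (median 65.6) in the 8 WT libraries and from 28.6 to 59.9 (median 52.0) in the 8 HMCES-KO libraries (-0.40 ± 0.12, adjusted p = 0.022), and so Ror2, Lrp6 and Fzd9 had the sign they had in untreated cells. Fzd10 ran from 150.2 to 203 TPM (median 169) in the 8 WT libraries and from 94.4 to 167 (median 132) in the 8 HMCES-KO libraries (-0.37 ± 0.09, adjusted p = 0.0049). Fzd5 ran from 219.7 to 269 TPM (median 237) in the 8 WT libraries and from 164 to 238 (median 200.0) in the 8 HMCES-KO libraries (-0.27 ± 0.08, adjusted p = 0.019), and Fzd6 from 5.63 to 11.4 TPM (median 8.41) in the 8 WT libraries and from 3.20 to 8.60 (median 5.42) in the 8 HMCES-KO libraries (-0.50 ± 0.17, adjusted p = 0.039).

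The lower core components were 5. Tcf7 ran from 19.0 to 27.8 TPM (median 23.7) in the 8 WT libraries and from 12.4 to 19.8 (median 16.2) in the 8 HMCES-KO libraries (-0.53 ± 0.12, adjusted p = 0.0034), lower by 0.46 to 0.58 in each of the 4 tables. Gsk3a ran from 59.3 to 84.8 TPM (median 74.4) in the 8 WT libraries and from 37.4 to 73.2 (median 57.0) in the 8 HMCES-KO libraries (-0.41 ± 0.10, adjusted p = 0.0073). Dvl1 ran from 29.4 to 42.1 TPM (median 34.0) in the 8 WT libraries and from 21.8 to 29.3 (median 27.8) in the 8 HMCES-KO libraries (-0.37 ± 0.10, adjusted p = 0.0097), and Dvl3 from 25.1 to 37.6 TPM (median 31.5) in the 8 WT libraries and from 21.3 to 28.5 (median 24.8) in the 8 HMCES-KO libraries (-0.27 ± 0.09, adjusted p = 0.026). Apc ran from 91.9 to 106 TPM (median 99.3) in the 8 WT libraries and from 81.2 to 98.7 (median 89.0) in the 8 HMCES-KO libraries (-0.17 ± 0.05, adjusted p = 0.028), a sign opposite to its call in the count table. The lower feedback genes were Axin2 and Znrf3. Axin2 ran from 6.64 to 13.2 TPM (median 10.6) in the 8 WT libraries and from 5.52 to 9.73 (median 7.68) in the 8 HMCES-KO libraries (-0.39 ± 0.13, adjusted p = 0.032), the sign it had in KO8 and in the untreated TPM table. Znrf3 ran from 21.5 to 28.5 TPM (median 23.7) in the 8 WT libraries and from 17.5 to 24.5 (median 18.5) in the 8 HMCES-KO libraries (-0.30 ± 0.08, adjusted p = 0.0092), a sign opposite to its call in KO8. The call of Axin2 was lost under 9 alternatives (adjusted p up to 0.0818) and that of Apc under 12 (up to 0.115).

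Of the treated members, 11 calls of the mean remained under every alternative tried: Fzd2, Sp5 and Tcf7l1 on the higher side, and Wnt6, Fzd10, Lrp6, Ror2, Dvl1, Gsk3a, Tcf7 and Znrf3 on the lower side. Of the other pathway genes, 7 of 63 were higher (against 13.8% of all genes) and 15 lower (against 20.7%) over the same mean.

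No member passed the test between a ligand and the inhibitor of its receptors after 2 h. In activin A against SB431542, 0 of 44 members were called in WT (against 0.0159% of genes, all higher) and 0 in HMCES-KO (against 0.103%, 0.0872% higher and 0.0159% lower), with 1 and 3 members at an unadjusted limma p under 0.05. In BMP4 against LDN193189, 0 were called in WT (against 0.0317%, 0.0238% higher and 0.00793% lower) and 0 in HMCES-KO (against 0.0238%, all higher), with 0 and 1 at an unadjusted p under 0.05. The tests of whether these responses differed between genotypes called 0 members each (against 0.00% of genes), with 0 and 2 at an unadjusted p under 0.05. edgeR on recovered reads called 0 members in all 6 comparisons. Treatment and table were the same split here. The joint fit had no line term, so the difference between KO1 and KO2 entered the spread of these tests, also within WT. The 0 calls therefore do not show that the members gave no response. Few genes of any kind were called in these comparisons, between 0 and 13 of 12608.

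The treated tables nevertheless fell into pairs, the activin A and SB431542 tables on one side and the BMP4 and LDN193189 tables on the other. The split was not particular to the members, with 1211 of 12608 genes called in WT. This comparison was chosen after the values were seen, and the labels do not say how cultures were shared between tables, so treatment pair and table pair cannot be told apart. In WT, 5 members were higher in the activin A and SB431542 pair and 1 was lower (6 of 44, against 9.61% of genes, 4.69% higher and 4.92% lower). Wnt6 was at 70.3 and 51.9 TPM under activin A and 52.7 and 42.3 under SB431542, compared with 19.0 and 18.2 under BMP4 and 17.5 and 12.8 under LDN193189, a difference of 1.62 ± 0.29 (adjusted p = 0.0038). Wnt7b was at 11.2 and 7.63, 8.88 and 7.10, 1.83 and 0.814, and 1.37 and 1.29 TPM in the same order (2.06 ± 0.44, adjusted p = 0.01), and Sp5 at 25.4 and 27.6, 20.9 and 21.8, 14.8 and 4.85, and 8.61 and 7.23 (1.42 ± 0.35, adjusted p = 0.023). Fzd9 (0.64 ± 0.17, adjusted p = 0.031) and Ctnnb1 (0.27 ± 0.06, adjusted p = 0.02) were higher by less. Fzd2 was lower in that pair (-0.82 ± 0.15, adjusted p = 0.0046). A ligand of a pathway and an inhibitor of the same pathway thus stood together on each side. Marker sums of WT differed between the pairs as well: 7 trophectoderm markers came to 166 to 181 TPM under activin A and SB431542 and 79.6 to 95.8 under BMP4 and LDN193189, and the endoderm markers to 41.6 to 51.4 and 74.8 to 95.2. Without 1 WT library (either under activin A or SB431542, or BMP4 replicate 2) the count was 3. Of the 6 calls, those of Fzd2 and Wnt6 were the ones kept whichever library was left out.

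The knockout difference itself depended on the pair for 2 members (of 44, against 0.872% of genes, 0.412% higher and 0.460% lower). For Wnt6 the log2 fold change of HMCES-KO minus WT was further below 0 in the activin A and SB431542 tables than in the other pair, a difference of -1.97 ± 0.41 (adjusted p = 0.046). Over the 4 tables Wnt6 lay between 5.41 and 20.2 TPM in HMCES-KO and between 12.8 and 70.3 in WT. For Lgr4 it was higher by 0.58 ± 0.12 (adjusted p = 0.038), with levels of 119 and 104 TPM in WT and 154 and 155 in HMCES-KO under activin A and 126 and 136 TPM in WT and 119 and 97.3 in HMCES-KO under BMP4. Fzd2 had 0.96 ± 0.22 in this test and did not pass (adjusted p = 0.059). The call of Lgr4 was lost without any 1 of 13 libraries (each library under activin A or SB431542, each WT library under BMP4 or LDN193189, and HMCES-KO replicate 2 under BMP4), and that of Wnt6 without any 1 of these or HMCES-KO replicate 1 under BMP4. Over all alternatives the adjusted p reached 0.125 for Wnt6 and 0.129 for Lgr4, both in limma without trend.

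**Figure D4:**
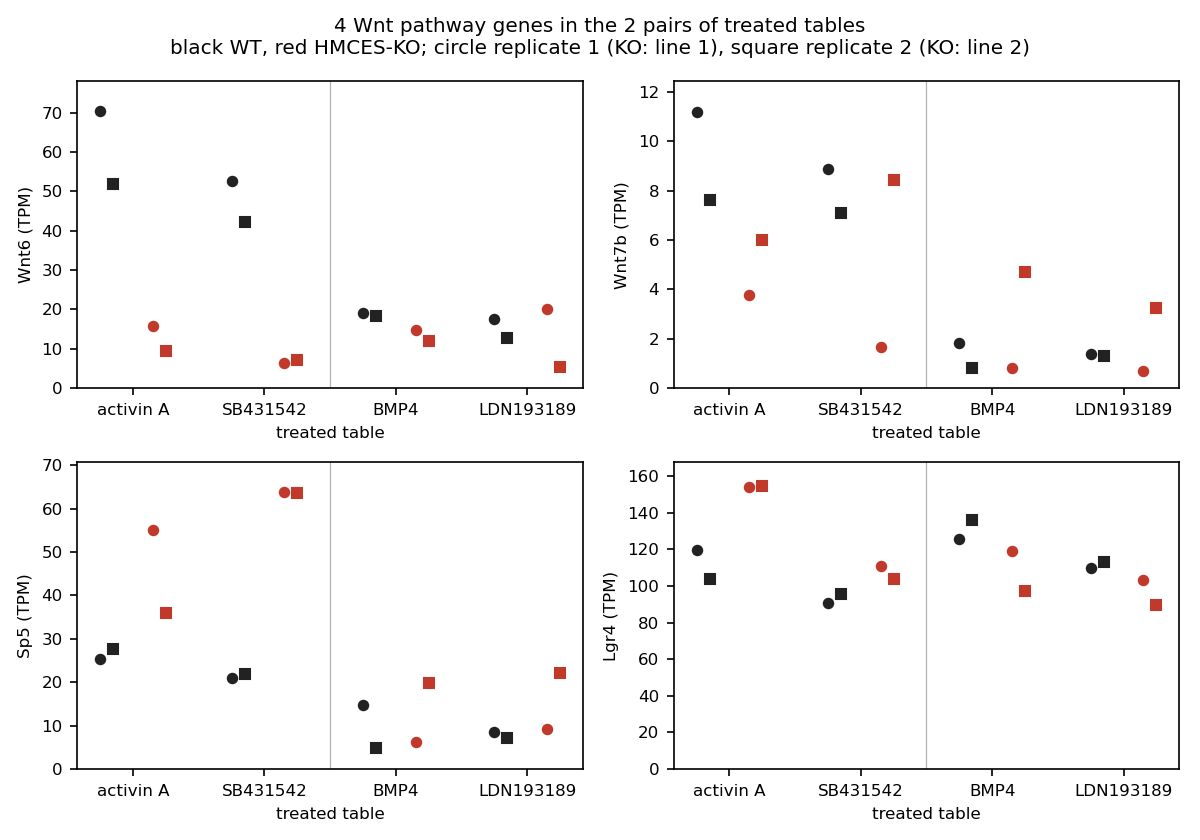
Level of Wnt6, Wnt7b, Sp5 and Lgr4 in TPM (vertical axes, from 0) in each library of the 4 treated tables, with WT in black and HMCES-KO in red. Circles are replicate 1 (line KO1 for HMCES-KO) and squares replicate 2 (line KO2). WT libraries of Wnt6 reach 42.3 to 70.3 TPM left of the grey line and 12.8 to 19.0 right of it.

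In the count table KO8 differed from KO7 in 17 of 43 members, 7 higher and 10 lower, where 28.2% of genes were called (13.9% higher and 14.3% lower). Without replicate 1 of KO7 or either replicate of KO8 the count was 10. In the treated tables KO2 differed from KO1 in 5 of 43 members, 2 higher and 3 lower (against 4.62% of 12331 genes, 2.65% higher and 1.97% lower), in a fit that compared the lines within tables. The count was 2 without the activin A table or the SB431542 table, 3 without that of LDN193189 and 0 without that of BMP4.

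Of the members called, Wnt7b had the largest difference in both line comparisons. In the count table KO8 exceeded KO7 by 3.73 ± 0.18 (adjusted p = 6.5e-12). In the treated tables KO2 exceeded KO1 by 1.34 ± 0.26 (adjusted p = 0.019). There KO1 was at 3.76, 1.67, 0.811 and 0.701 TPM under activin A, SB431542, BMP4 and LDN193189, and KO2 at 6.02, 8.42, 4.68 and 3.23, higher in each table. Tcf7l1 was higher in KO8 than in KO7 by 0.85 ± 0.06 (adjusted p = 4.3e-09) and in KO2 than in KO1 by 0.51 ± 0.09 (adjusted p = 0.012). Its KO1 levels were 134, 134, 99.7 and 96.4 TPM and its KO2 levels 174, 169, 153 and 161 TPM, without overlap. Genes within 5 Mb of Tcf7l1 had medians of 0.15 over 33 genes between KO8 and KO7 and 0.29 over 31 genes between KO2 and KO1.

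Sfrp1, Fzd10 and Fzd5 were lower in both comparisons. Sfrp1 differed by -1.03 ± 0.06 (adjusted p = 5.7e-11) between KO8 and KO7 and by -0.44 ± 0.10 (adjusted p = 0.039) between KO2 and KO1, with 92.6, 96.3, 93.5 and 96.1 TPM in KO1 and 62.0, 61.2, 69.4 and 87.5 in KO2. Fzd10 differed by -0.67 ± 0.09 (adjusted p = 1.3e-05) and -0.37 ± 0.08 (adjusted p = 0.036), with 167, 132, 145 and 155 TPM in KO1 and 118, 94.4, 122 and 131 in KO2. Fzd5 differed by -0.34 ± 0.05 (adjusted p = 5.5e-05) and -0.32 ± 0.08 (adjusted p = 0.046), with 209.8, 211, 238 and 228 TPM in KO1 and 179, 175, 164 and 190.2 in KO2. Of the 5 calls between KO2 and KO1, 0 remained under every alternative tried. All 5 members were also called between KO8 and KO7, where 28.2% of genes were called, and had the same sign there. The share of all genes that did so is not given here. The shared signs do not tie KO2 to KO8, since nothing in the sources used here links the names.

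The other members called between KO8 and KO7 were 12. Wnt9a (1.38 ± 0.40, adjusted p = 0.013), Ror1 (1.18 ± 0.33, adjusted p = 0.0099), Tcf7 (0.30 ± 0.08, adjusted p = 0.008), Axin1 (0.21 ± 0.06, adjusted p = 0.018) and Fzd7 (0.20 ± 0.07, adjusted p = 0.028) were higher in KO8. Dkk1 (-3.10 ± 0.81, adjusted p = 0.0063), Wnt11 (-1.10 ± 0.33, adjusted p = 0.015), Fzd3 (-0.75 ± 0.13, adjusted p = 0.00015), Fzd2 (-0.70 ± 0.13, adjusted p = 0.00024), Axin2 (-0.51 ± 0.12, adjusted p = 0.0032), Dvl1 (-0.32 ± 0.09, adjusted p = 0.0074) and Lrp5 (-0.32 ± 0.08, adjusted p = 0.0045) were lower. Fzd2 was above WT in both lines, so its difference was one of size. In the treated tables the difference of Fzd2 between lines was 0.01 ± 0.17 (adjusted p = 0.99). Of the 17 calls between KO8 and KO7, 8 remained under every alternative tried: Wnt7b, Tcf7l1, Sfrp1, Fzd2, Fzd3, Fzd5, Fzd10 and Axin2.

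**Figure D5:**
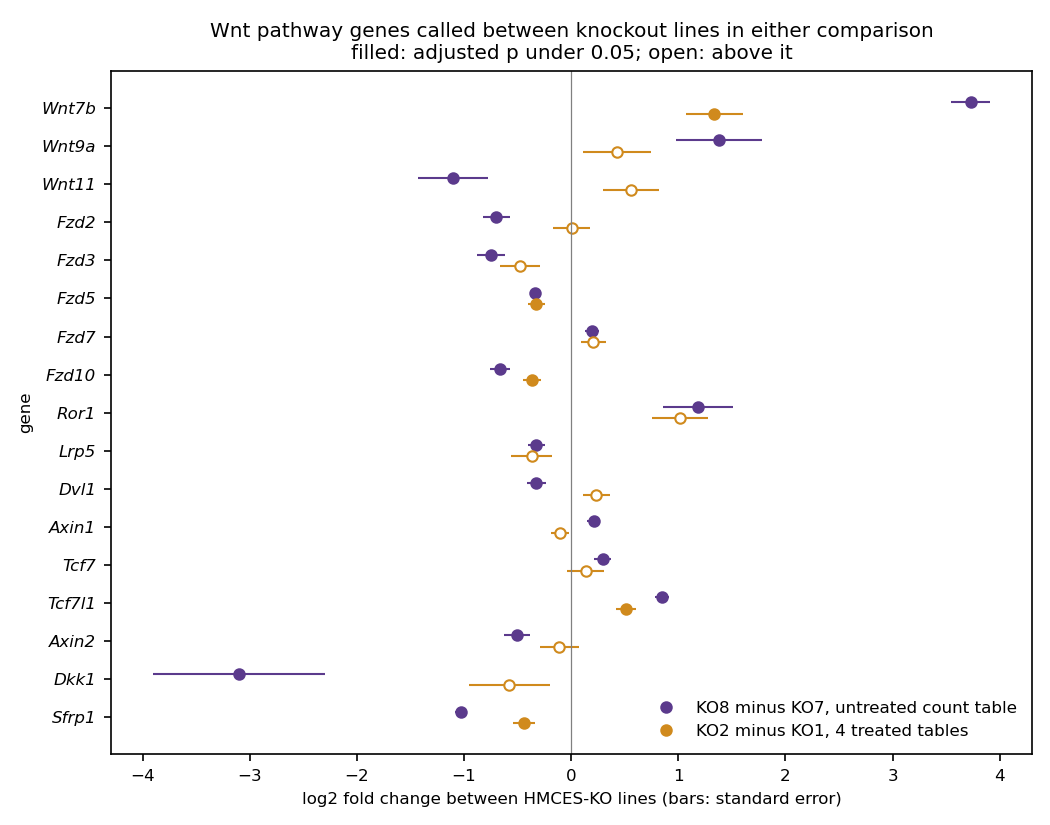
Log2 fold change between knockout lines (horizontal axis, bars are standard errors) for the 17 members called in either comparison (vertical axis), KO8 minus KO7 in purple and KO2 minus KO1 in orange, filled where an adjusted p under 0.05 was reached. Wnt7b and Tcf7l1 lie right of 0 and Sfrp1, Fzd10 and Fzd5 left of 0, filled in both.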

How the data were processed

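RNA-seq of 26 libraries of mouse embryonic stem cells was read from the deposited tables. The authors' count table holds whole counts of read pairs per gene over exons, made with featureCounts 2.0.1 on an mm10 RefSeq annotation per the file headers. FastQC 0.11.5, Bowtie2 2.3.3, SAMtools 1.9 and DESeq2 were named per the submitters' processing notes, and the sources used here do not state strand use. The other tables hold TPM computed by the authors, on gene lengths that are not given for the treated tables. Members were matched by symbol. Members and lists were chosen with earlier results of these data known.

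Counts were tested with edgeR 4.0.16 (TMM, expression filter by group, quasi-likelihood) as 3 groups of 2, with TPM per library from the deposited lengths for display. TPM was tested with limma 3.58.1 with trend on log2(TPM + 1), for genes with at least 1 TPM in at least 2 libraries, which understates changes of low genes. The 16 treated libraries were fitted jointly as 8 groups on 12928 shared genes rescaled to 1000000. Line differences used the 8 HMCES-KO libraries with table as a covariate. P-values were adjusted by Benjamini-Hochberg over all genes tested, and a gene was called under 0.05. Errors after ± are standard errors on the log2 scale, for edgeR the fold change divided by the square root of its F statistic. The text names every member called in a table with its libraries' values and, of the other pathway genes, the 4 called genes with the largest change per comparison of untreated cells. Nothing says that libraries were separate cultures, so p-values measure the spread between libraries, which may be technical. Whole reads were recovered from TPM for 100% of values within 0.01 reads, and in the treated tables for the genes (97.0%) with a solvable unit, where the search partly fixes the outcome. Replicate numbers paired no samples (correlations of deviations from -0.02 to 0.03 in untreated tables), except that HMCES-KO libraries of the treated tables with the same number are the same line. Alternatives were DESeq2 1.42.0, other scalings, filters and pseudocounts, a replicate block, edgeR on recovered reads, and leaving out each library. The fits were tested on simulated data. Promoters came from RefSeq (GRCm38.p6).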

Additional observations from a re-analysis of the deposited data

Results flagged for a closer look

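The knockout lines of the count table differed from each other in their change against WT, by edgeR's quasi-likelihood test of KO8 against KO7 at an adjusted p under 0.05, in 17 members. The log2 difference was 3.73 for Wnt7b, 1.38 for Wnt9a, 1.18 for Ror1, 0.85 for Tcf7l1, 0.30 for Tcf7, 0.21 for Axin1 and 0.20 for Fzd7. It was -3.10 for Dkk1, -1.10 for Wnt11, -1.03 for Sfrp1, -0.75 for Fzd3, -0.70 for Fzd2, -0.67 for Fzd10, -0.51 for Axin2, -0.34 for Fzd5, -0.32 for Lrp5 and -0.32 for Dvl1. Between KO2 and KO1 in the treated tables, limma gave 1.34 for Wnt7b, 0.51 for Tcf7l1, -0.44 for Sfrp1, -0.37 for Fzd10 and -0.32 for Fzd5.

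The difference between genotypes in the activin A and SB431542 tables departed from that in the BMP4 and LDN193189 tables by -1.97 for Wnt6 and 0.58 for Lgr4, in a comparison chosen after the values were seen.

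Among the 4 knockout libraries of the count table, Rnf43 stood at 0.359 and 0.369 TPM in KO7 and 1.02 and 0.465 in KO8, so that replicate 1 of KO8 lay apart, with a gap of 0.84 of the range. These are 6 to 16 counts, and chance sets 1 in 20 such groups apart in this way.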

How the results depend on the processing

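Of 143 calls of members, 81 were lost under at least 1 alternative, and over 2023 alternative values 1646 kept sign and call, 377 lost the call and 0 changed sign. The pairs of treated tables and edgeR on the treated tables' recovered reads were chosen after seeing the data. The cause of the changes below was not tested. Except for those from DESeq2, the counts below are given without the matching counts over all genes.

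The count for the mean of both lines was 9 with the knockout libraries as 1 group. DESeq2 gave 19 for KO8 and 11 for KO8 against KO7. Over all genes it moved KO8 from 2594 higher and 2654 lower to 1863 and 1620. KO8 against KO7 moved from 1869 higher and 1928 lower to 1177 and 1231. In the untreated TPM table the count was 6 with no filter on low values, 2 in limma without trend and 19 in edgeR on recovered reads. That last method gave 7 under SB431542 and 1 under LDN193189. The 4 libraries of a table alone gave 6 under SB431542 and 0 under BMP4. Limma without trend gave 0 under BMP4, 3 for the pairs of tables in WT, 0 for their difference between genotypes and 0 for KO2 against KO1. The difference between genotypes of the pairs gave 1 with a pseudocount of 0.1 and 1 with median-of-ratios scaling.

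Leaving out 1 library, the counts ran from 21 to 29 for the mean of both lines, 12 to 22 for KO7, 18 to 30 for KO8, 10 to 21 for KO8 against KO7, 13 to 20 for the treated mean, 3 to 9 for untreated TPM, and from 2 to 7 with activin A as with SB431542, 0 to 1 with BMP4, 0 to 2 with LDN193189, 3 to 7 for the pairs in WT and 0 to 4 for their difference between genotypes. Leaving out 1 table gave 0 to 3 for KO2 against KO1.

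With the replicate block the counts were 23 for the mean of both lines, 20 for KO7, 29 for KO8, 17 for KO8 against KO7, 7 untreated, 8 under activin A, 5 under SB431542, 1 under BMP4, 0 under LDN193189 and 19 for the treated mean. Samples of the untreated tables shared only a number, with no correlation above 0.03. Low counts limit Ror1, Wnt5a, Wnt5b, Dkk1, Nkd2 and Rnf43 and, of the other pathway genes, Sp8, Wnt3 and Wnt10a.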
